A study of Saccharomyces cerevisiae with 18 samples.

Results

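AAH1, the adenine deaminase gene, and 9 ADE genes of purine nucleotide synthesis were followed in the budding yeast Saccharomyces cerevisiae across 18 Affymetrix arrays. Of these 10 listed genes, 9 had an annotated probe set, among 5449 genes measured. The tenth, ADE5,7, was not analysed here because the annotation used pairs no probe set with it. The genes were chosen by their measured log2 differences, because AAH1 had been seen to be lower after linoleic acid hydroperoxide in the swi6 deletant and lower in C404A cells than in wild type. The values of the members in those comparisons are therefore given as a description, without a test.

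The 6 groups, of 3 arrays each, were swi6 deletant cells after LoaOOH and without it, C404A mutant cells after LoaOOH and without it, and wild type SWI6 cells after LoaOOH and without it. LoaOOH is linoleic acid hydroperoxide, a lipid hydroperoxide that imposes oxidative stress, applied at 30 µM for 45 min. In the C404A mutant a cysteine of Swi6 is replaced by alanine. Swi6 is the shared subunit of the transcription factors SBF and MBF, which drive gene expression in late G1. All groups were grown at 30 °C in synthetic medium lacking leucine. The labels do not state the strain background, how the mutant allele was introduced, the number of independent clones or whether replicates were separate cultures. The p-values therefore measure the spread between these arrays, which may be technical.

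Yeast builds purines on an activated ribose, phosphoribosyl pyrophosphate (PRPP), by a chain of ADE enzymes that ends in inosine monophosphate (IMP). IMP is then turned into AMP by Ade12 and Ade13, or into GMP by the IMD enzymes and Gua1. The transcription factors Bas1 and Pho2 switch on most ADE genes, and with them several histidine and one-carbon genes, when adenine is scarce. Aah1 works on the salvage side, where it deaminates adenine to hypoxanthine, which Hpt1 converts to IMP. AAH1 is known in yeast as a gene of growing cells that is shut off as nutrients run out.

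SWI6 itself lay between 3.129 and 4.331 on the log2 scale in deletant arrays, between 10.15 and 10.48 in C404A arrays and between 10.15 and 10.68 in wild type arrays. Genes of chromosome V had a median difference from wild type of 0.76 (1.69-fold) in the untreated deletant and 0.70 (1.62-fold) in the untreated C404A mutant, over 259 genes, and no member lies on that chromosome. Every comparison of a mutant with wild type below includes this difference. Its effect on genes of other chromosomes, the members among them, was not tested. The C404A replicate 2 arrays stood apart. Across all genes, the difference between the arrays labelled C404A LoaOOH replicate 2 and C404A control replicate 2 had a correlation of -0.60 to -0.21 with the same difference in the other 8 same-numbered pairs, which correlated at 0.46 to 0.85 with each other. That difference was also smaller, with an SD over all genes of 0.115 against 0.224 to 0.334 in the other 8 pairs. Whether these 2 arrays carry each other's labels was not tested. Results that rest on them are therefore given with all arrays and without these 2 arrays. Because the arrays were set apart by their LoaOOH difference, a C404A response without them is not an independent test. In the comparisons that do not contain them, leaving them out changes the shared estimate of the spread.

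AAH1 stood lower after LoaOOH than without it in 8 of 9 same-numbered pairs of arrays, the exception being C404A replicate 2. In the deletant its log2 signal was 10.31, 10.27 and 10.60 after LoaOOH, against 11.24, 11.37 and 11.27 in control cells. In the C404A mutant it was 10.14, 10.97 and 10.17 after LoaOOH, against 10.99, 10.67 and 10.92 in control cells. In wild type it was 10.98, 10.61 and 10.98 after LoaOOH, against 11.77, 11.73 and 11.60 in control cells. The LoaOOH and control arrays did not overlap in the deletant and in wild type, and overlapped in the C404A mutant through replicate 2.

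**Figure D1:**
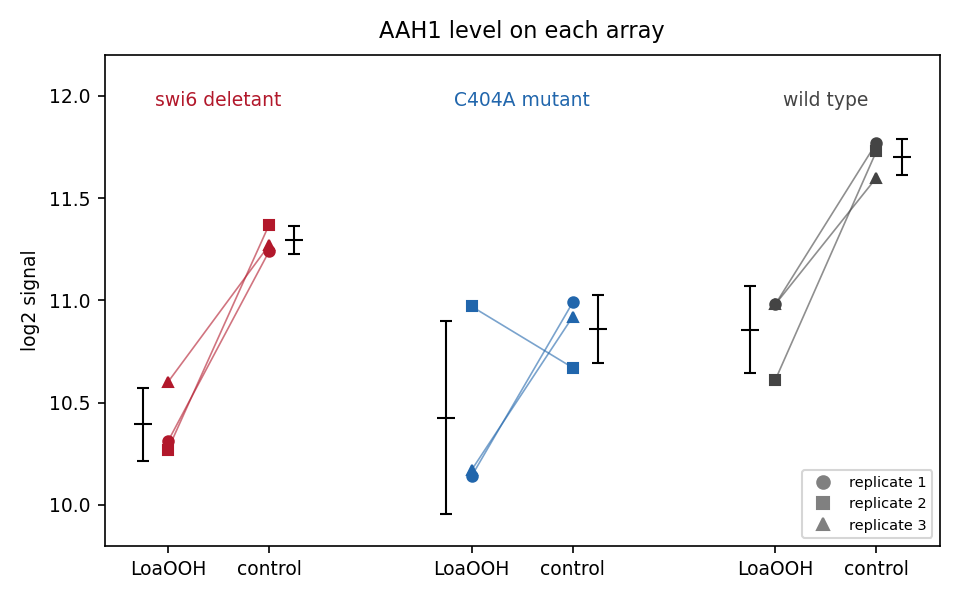
Log2 signal of AAH1 (vertical axis) on each of the 18 arrays, with LoaOOH left of control in each genotype. Marker shapes give the replicate number, lines join arrays of the same number, and bars show the group mean ± SD (n = 3); 8 of the 9 lines have the LoaOOH array lower, and the C404A replicate 2 line runs from 10.97 after LoaOOH to 10.67 in control.

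The difference of AAH1 between LoaOOH and control in wild type was not itself used to choose the gene, although its control arrays also enter the comparison of C404A with wild type, which was. It was -0.84 ± 0.179 log2 units (SE; 3 arrays against 3), a level 1.79-fold lower, and did not pass 0.05 with all arrays in limma (adjusted p = 0.0585). Without the C404A replicate 2 arrays, which enter only through the shared estimate of the spread, AAH1 fell by the same 0.84 ± 0.105 (adjusted p = 0.00092). Over 30 alternatives the adjusted p ran from 0.00092 to 0.266. In the C404A mutant the difference was -0.43 ± 0.179 (adjusted p = 0.793), and without the replicate 2 arrays AAH1 fell by 0.79 ± 0.128 (adjusted p = 0.00926, with a range over 30 alternatives of 0.00926 to 0.999). Those arrays were left out for a response opposite to the other pairs, so the smaller p cannot serve as a test of the C404A response. AAH1 itself ran opposite in them, so the smaller spread and p in wild type also depend on that choice. In the deletant, as a description, the difference was -0.90 ± 0.179, and it differed from the wild type response by -0.05 ± 0.253. The difference between the C404A and wild type responses, which is built from comparisons that chose AAH1 and is also a description, was 0.42 ± 0.253 with all arrays and 0.05 ± 0.165 without replicate 2. The arrays with the prefix CT in their descriptions, replicates 1 and 2, gave -0.95 in wild type (adjusted p = 0.194), and the JC arrays, replicate 3, gave -0.63 with no test possible.

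Ordered by mean, AAH1 was highest in wild type control cells (11.70 ± 0.0864), followed by deletant control (11.29 ± 0.0649), wild type after LoaOOH (10.86 ± 0.214), C404A control (10.86 ± 0.166), C404A after LoaOOH (10.43 ± 0.471) and deletant after LoaOOH (10.40 ± 0.175) (SD, n = 3 each). The arrays of the first and second of these groups did not overlap with those of the group next in order, while each of the later neighbours did overlap. C404A control cells differed from wild type control cells by -0.84 ± 0.179, or -0.75 ± 0.117 without replicate 2, and after LoaOOH by -0.43 ± 0.179, or -0.70 ± 0.117 without replicate 2. Untreated deletant cells differed from untreated wild type cells by -0.41 ± 0.179 (adjusted p = 0.187), and treated deletant cells differed from treated wild type cells by -0.46 ± 0.179 (adjusted p = 0.128). The deletant arrays lay below all wild type arrays in both conditions, where 14.1% and 15.4% of all genes did. Without the C404A replicate 2 arrays, left out after the data were seen, both deletant differences passed, at adjusted p = 0.023 and 0.0112. Over the 28 alternatives run for each, the adjusted p ran from 0.023 to 0.407 in control cells and from 0.0112 to 0.348 after LoaOOH. C404A cells differed from deletant cells by -0.43 ± 0.179 without treatment (adjusted p = 0.28), with no overlap of the arrays, as for 12% of all genes in that direction. After LoaOOH the difference was 0.03 ± 0.179 (adjusted p = 0.95), and without replicate 2 it was -0.24 ± 0.117 (adjusted p = 0.335). These genotype comparisons share arrays with each other and with the comparisons that chose AAH1. Their p-values for AAH1, the passing ones included, are therefore not independent of that choice.

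The ADE genes differed little between LoaOOH and control arrays. No member passed in the wild type response (0 of 9 in limma, where 0.257% of all genes passed), and 2 of 9 had an unadjusted p under 0.05, against 18.8% of all genes. Without the C404A replicate 2 arrays 1 of 9 passed, AAH1, against 8.79% of all genes. In the C404A response 0 of 9 passed (0% of all genes) and 1 of 9, AAH1, had an unadjusted p under 0.05, against 5.85%. Without replicate 2 AAH1 was again the 1 member of 9 that passed, against 3.98% of all genes, in a fit that leaves out arrays for their own response. The median difference of the members was -0.06 in wild type, -0.04 in C404A and -0.02 in the deletant, and the median over all genes was 0.002, -0.0017 and 0.0021 in the same order.

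ADE6, which encodes the enzyme of the fourth step of the pathway, came closest to AAH1 in the wild type response. Its log2 signal was 12.76, 12.57 and 12.72 in wild type after LoaOOH, against 12.98, 12.89 and 12.90 in wild type control cells, with no overlap. The difference was -0.24 ± 0.103 (adjusted p = 0.215). It passed in 1 of 30 alternatives (adjusted p from 0.0274 to 0.576), the fit with each same-numbered pair as a block and without the C404A replicate 2 arrays. Its LoaOOH array was the lower one in 8 of 9 pairs, with differences from -0.32 to -0.03, and C404A replicate 2 was the exception at 0.06. ADE8, glycinamide ribotide transformylase, was lower after LoaOOH in 9 of 9 pairs, with differences from -0.20 to -0.01. In wild type ADE8 stood at 11.96, 11.88 and 11.89 after LoaOOH, against 12.06, 12.08 and 12.02 in control cells, a difference of -0.14 ± 0.142 (adjusted p = 0.672). That fit does not use the pairs. Over 30 alternatives the adjusted p of ADE8 ran from 0.0596 to 0.841. With AAH1, these were 3 of 9 members whose wild type LoaOOH arrays all lay below the control arrays, against 15.4% of all genes.

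ADE2, phosphoribosylaminoimidazole carboxylase, was higher after LoaOOH in 8 of 9 pairs, with differences from -0.08 to 0.19. ADE1, the enzyme of the next step, was lower in 8 of 9 pairs, from -0.21 to 0.10. ADE4, which catalyses the first committed step from PRPP, was lower in 6 of 9 pairs, from -0.23 to 0.12. ADE13, adenylosuccinate lyase, ranged from -0.02 to 0.09, ADE12, adenylosuccinate synthase, from -0.05 to 0.15, and ADE17, which forms IMP, from -0.14 to 0.23. None of these 6 genes passed in the wild type or C404A response (adjusted p from 0.829 to 0.964 in wild type and from 0.966 to 0.996 in C404A).

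**Figure D2:**
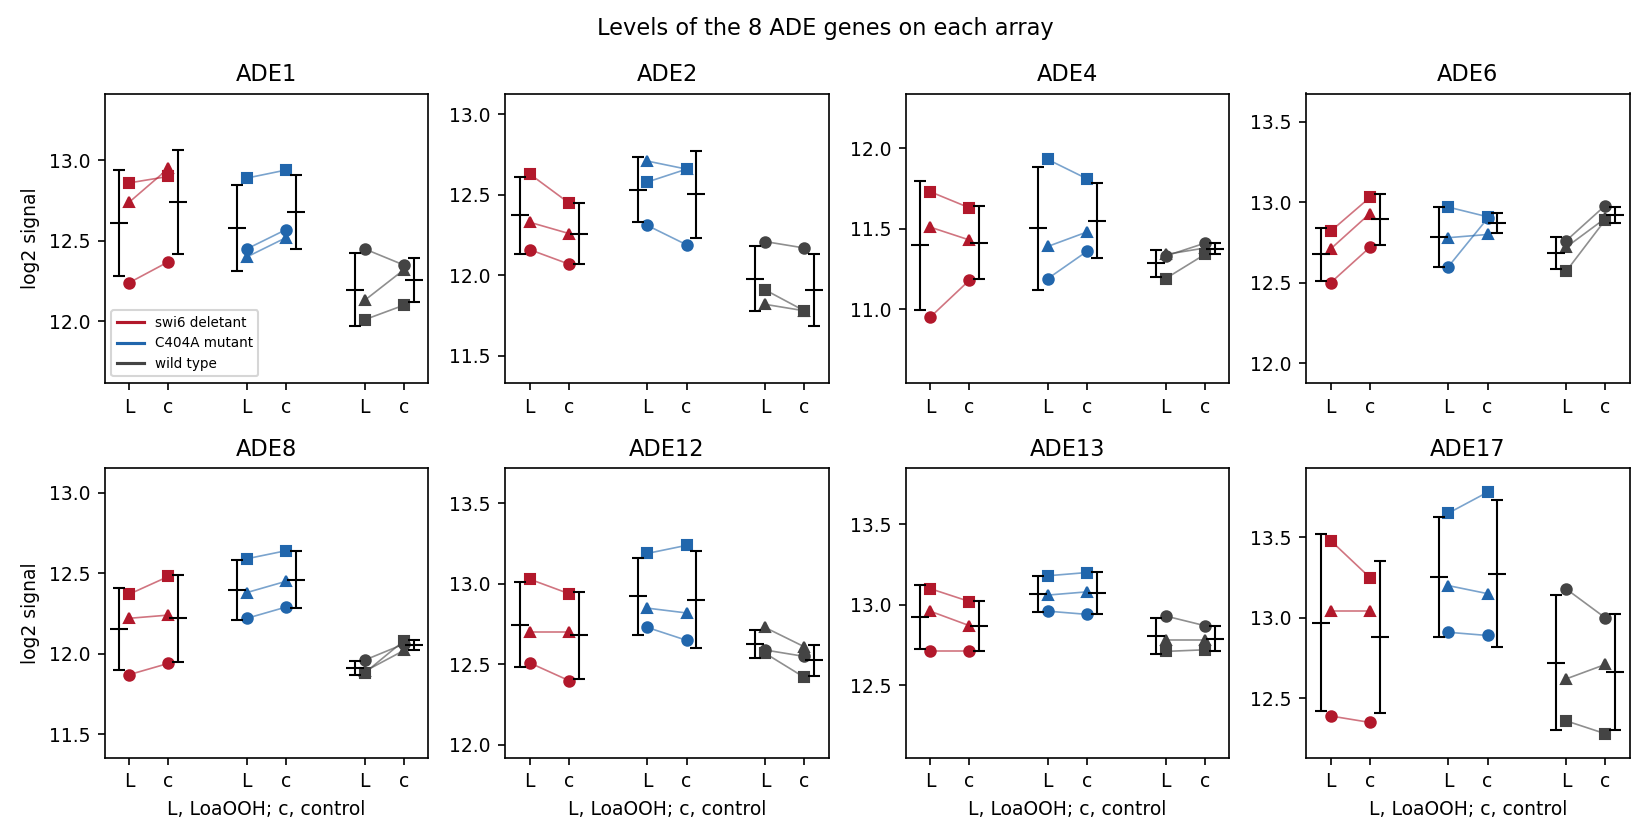
Log2 signal (vertical axes, all spanning the same range) of the 8 ADE genes on each array, with LoaOOH (L) left of control (c) for deletant, C404A and wild type. Marker shapes are circle, square and triangle for replicates 1, 2 and 3, lines join arrays of the same number and bars show mean ± SD (n = 3); the lines are nearly level, while replicates of a group lie apart, as for ADE17 between 12.39 and 13.48 in the deletant after LoaOOH.

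The ADE genes other than ADE6 varied more between same-numbered pairs than within them. What a shared number stands for is not stated in the labels. For ADE17 the mean of the LoaOOH and control arrays of a pair ranged from 12.32 in wild type replicate 2 to 13.71 in C404A replicate 2, a span of 1.39, while the LoaOOH difference within a pair stayed between -0.14 and 0.23. In the deletant ADE17 stood at 12.39, 13.48 and 13.04 after LoaOOH, against 12.35, 13.25 and 13.04 in control cells. In the C404A mutant it stood at 12.91, 13.65 and 13.20 after LoaOOH, against 12.89, 13.78 and 13.15 in control cells. In wild type it stood at 13.18, 12.36 and 12.62 after LoaOOH, against 13.00, 12.28 and 12.71 in control cells. Each LoaOOH array of ADE17 lay within 0.23 of its same-numbered control array. Over the 9 pairs the SD of the pair means was 0.454 for ADE17, 0.318 for ADE2, 0.307 for ADE1 and 0.251 for ADE8, and the SD of the LoaOOH differences was 0.116, 0.076, 0.0917 and 0.0534 for the same genes. For AAH1 the differences varied more than the means, with an SD of 0.421 against 0.299, and for ADE6 the SDs were 0.122 and 0.102.

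The ADE genes went up and down together over these replicates. After the mean of each genotype was taken off, the correlation of pair means between 2 ADE genes was 0.62 to 0.98 (median 0.91 over 28 gene pairs, 9 points from 3 genotypes), a description of points that share arrays. The mean of 6 members on the way to IMP, ADE1, ADE2, ADE4, ADE6, ADE8 and ADE17, each centred on its own mean, was -0.34 after LoaOOH and -0.25 in control for deletant replicate 1, but 0.29 and 0.26 for deletant replicate 2. ADE13, which also acts on the way to IMP, and ADE16 were not part of this mean. The mean was 0.41 and 0.43 for C404A replicate 2, and -0.37 and -0.28 for wild type replicate 2. Deletant replicates 1 and 2, which lay at opposite ends, both carry the CT prefix.

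**Figure D3:**
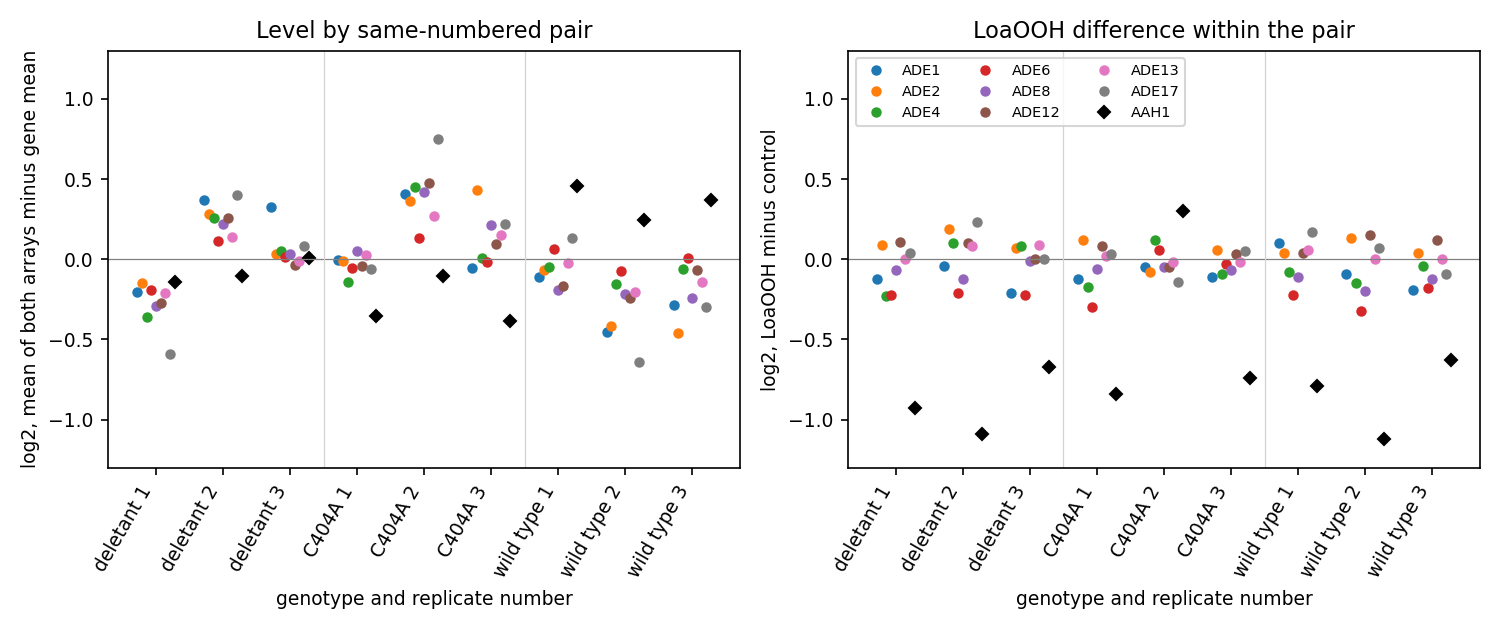
For each same-numbered pair of arrays (horizontal axis, genotype and replicate number), the left panel gives the mean log2 signal of the pair minus the mean of the gene over all pairs, and the right panel gives LoaOOH minus control on the log2 scale. Points are the 8 ADE genes (circles) and AAH1 (black diamonds); the ADE genes shift together between pairs on the left and lie between -0.32 and 0.23 on the right, where AAH1 lies between -1.12 and 0.30.

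Most ADE genes had higher mean levels in the mutants than in wild type, and the differences of the deletant did not pass. In deletant control cells 0 of 9 members passed against wild type, where 10.1% of all genes passed, or 4.82% with chromosome V genes left out. An unadjusted p under 0.05 was seen for 2 of 9, against 22.1% of all genes. After LoaOOH 0 of 9 passed, against 10.4% of all genes, or 4.91% with chromosome V genes left out. Here 3 of 9 had an unadjusted p under 0.05, against 22.6%. Without the C404A replicate 2 arrays AAH1 was the 1 of 9 that passed in each, against 11.2% of all genes in each. The median of the members was 0.15 in control cells and 0.12 after LoaOOH. ADE1 had the largest positive difference in both. Its signal was 12.37, 12.90 and 12.95 in deletant control cells, against 12.35, 12.10 and 12.32 in wild type control cells, so all deletant arrays lay above the wild type arrays, as for 14.9% of all genes. The difference was 0.48 ± 0.195 (adjusted p = 0.151), and after LoaOOH, with overlap, it was 0.42 ± 0.195 (adjusted p = 0.219). The other ADE genes overlapped with wild type in control cells. Deletant control replicate 1 lay below wild type control replicate 1 for every ADE gene but ADE1. For ADE17 these arrays stood at 12.35 against 13.00, while those of replicate 2 stood at 13.25 against 12.28.

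In the C404A mutant the comparison with wild type is one that chose the members, and it is described only. In control cells 7 of 9 members were positive, with a median of 0.37, or 0.22 without replicate 2. ADE2 stood at 12.19, 12.66 and 12.66 in C404A control cells, against 12.17, 11.78 and 11.78 in wild type control cells, a difference of 0.59 ± 0.17, or 0.51 ± 0.197 without replicate 2. ADE17 differed by 0.61 ± 0.328, or 0.35 ± 0.34 without replicate 2, and its arrays overlapped with wild type. ADE8 differed by 0.41 ± 0.142, or 0.31 ± 0.149 without replicate 2, and ADE12 by 0.37 ± 0.172, or 0.21 ± 0.156 without replicate 2. ADE6 differed by -0.05 ± 0.103 and was the only ADE gene with a negative value. All C404A control arrays lay above the wild type control arrays for 5 of 9 members, ADE1, ADE2, ADE8, ADE12 and ADE13, against 14.6% of all genes. After LoaOOH this held for 3 of 9, ADE2, ADE8 and ADE13, against 11.8%, and the median was 0.29, or 0.20 without replicate 2. Set against the deletant, C404A cells had 0 of 9 members passing in control cells (1.8% of all genes) and 0 of 9 after LoaOOH (1.45%), with 1 of 9 and 0 of 9 at an unadjusted p under 0.05 (15.1% and 12.9% of all genes).

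ADE3, a gene of folate supply, and ADE16 complete the set of ADE genes around the pathway. ADE16 is the partner of ADE17 and encodes a closely related enzyme, so the probe sets of this pair may share signal. ADE16 differed from wild type by -0.05 ± 0.0546 in C404A control cells (adjusted p = 0.563) and by -0.04 ± 0.0546 in deletant control cells (adjusted p = 0.705), and ADE3 by -0.05 and 0.06 (adjusted p = 0.787 and 0.784). After LoaOOH ADE16 differed from control by 0.21 ± 0.0546 in the deletant (adjusted p = 0.0512, and 0.0223 without replicate 2 of C404A) and by 0.12 ± 0.0546 in wild type (adjusted p = 0.231). The transcripts of the activators BAS1 and PHO2 differed from wild type by -0.08 and -0.06 in C404A control cells (adjusted p = 0.607 and 0.615) and by -0.17 and -0.02 in deletant control cells (adjusted p = 0.308 and 0.904).

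Of the 4 measured genes of the GMP branch, 0 rose and 2 fell in the deletant response, where 3.56% of all genes passed. IMD4, an IMP dehydrogenase gene, fell by 0.52 ± 0.108 (adjusted p = 0.0281), and GUA1, GMP synthase, fell by 0.37 (adjusted p = 0.0413). Over 30 alternatives the adjusted p of IMD4 ran from 0.00151 to 0.131 and that of GUA1 from 0.00832 to 0.147. IMD4 passed in 21 of the 30 and GUA1 in 14. Among all genes 194 passed in the deletant response with all arrays, and 0 to 59 with a single deletant array left out. In wild type IMD4 differed by -0.42 ± 0.108 (adjusted p = 0.0617, and 0.00559 without the C404A replicate 2 arrays). In C404A control cells 4 of 4 had a negative difference from wild type and 3 of 4 passed. Among all genes 8.24% passed, or 1.81% with chromosome V genes left out. Without replicate 2, 1 of 4 passed in control cells, against 7.4% of all genes. After LoaOOH 1 of 4 passed with all arrays, against 7.38% of all genes, or 1.33% with chromosome V genes left out. Without replicate 2, 2 of 4 passed, against 7.14% of all genes. In control cells IMD4 differed by -0.43 (adjusted p = 0.0219) and IMD3 by -0.27 (adjusted p = 0.0284). Without replicate 2 IMD4 kept its call (adjusted p = 0.0183) and IMD3 did not (adjusted p = 0.102).

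IMD2, another IMP dehydrogenase gene, had non-overlapping levels in the 3 genotypes in control cells, and in wild type it differed by -0.03 after LoaOOH (adjusted p = 0.933). Its log2 signal was 9.825, 10.13 and 9.628 in deletant control cells and 10.42, 10.44 and 10.64 in C404A control cells, against 10.95, 10.91 and 10.93 in wild type control cells. In the untreated deletant the difference from wild type was -1.07 (2.1-fold lower, adjusted p = 1.95e-05) and -1.25 after LoaOOH (2.38-fold lower, adjusted p = 4.12e-06), and both passed in all 28 alternatives run for them. C404A cells were higher than deletant cells by 0.64 (adjusted p = 0.0148) and, after LoaOOH, by 0.77 (adjusted p = 0.00333). The first of these passed in 25 of 28 alternatives (adjusted p up to 0.586) and the second in 27 of 28 (up to 0.134). The difference of C404A from wild type control cells, -0.43 (adjusted p = 0.0435), lost its call in 20 of 28 alternatives. The ID of the IMD2 probe set carries the suffix that marks probes shared with other sequences, so IMD1, which was not analysed here, and the other IMD genes may contribute to it.

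**Figure D4:**
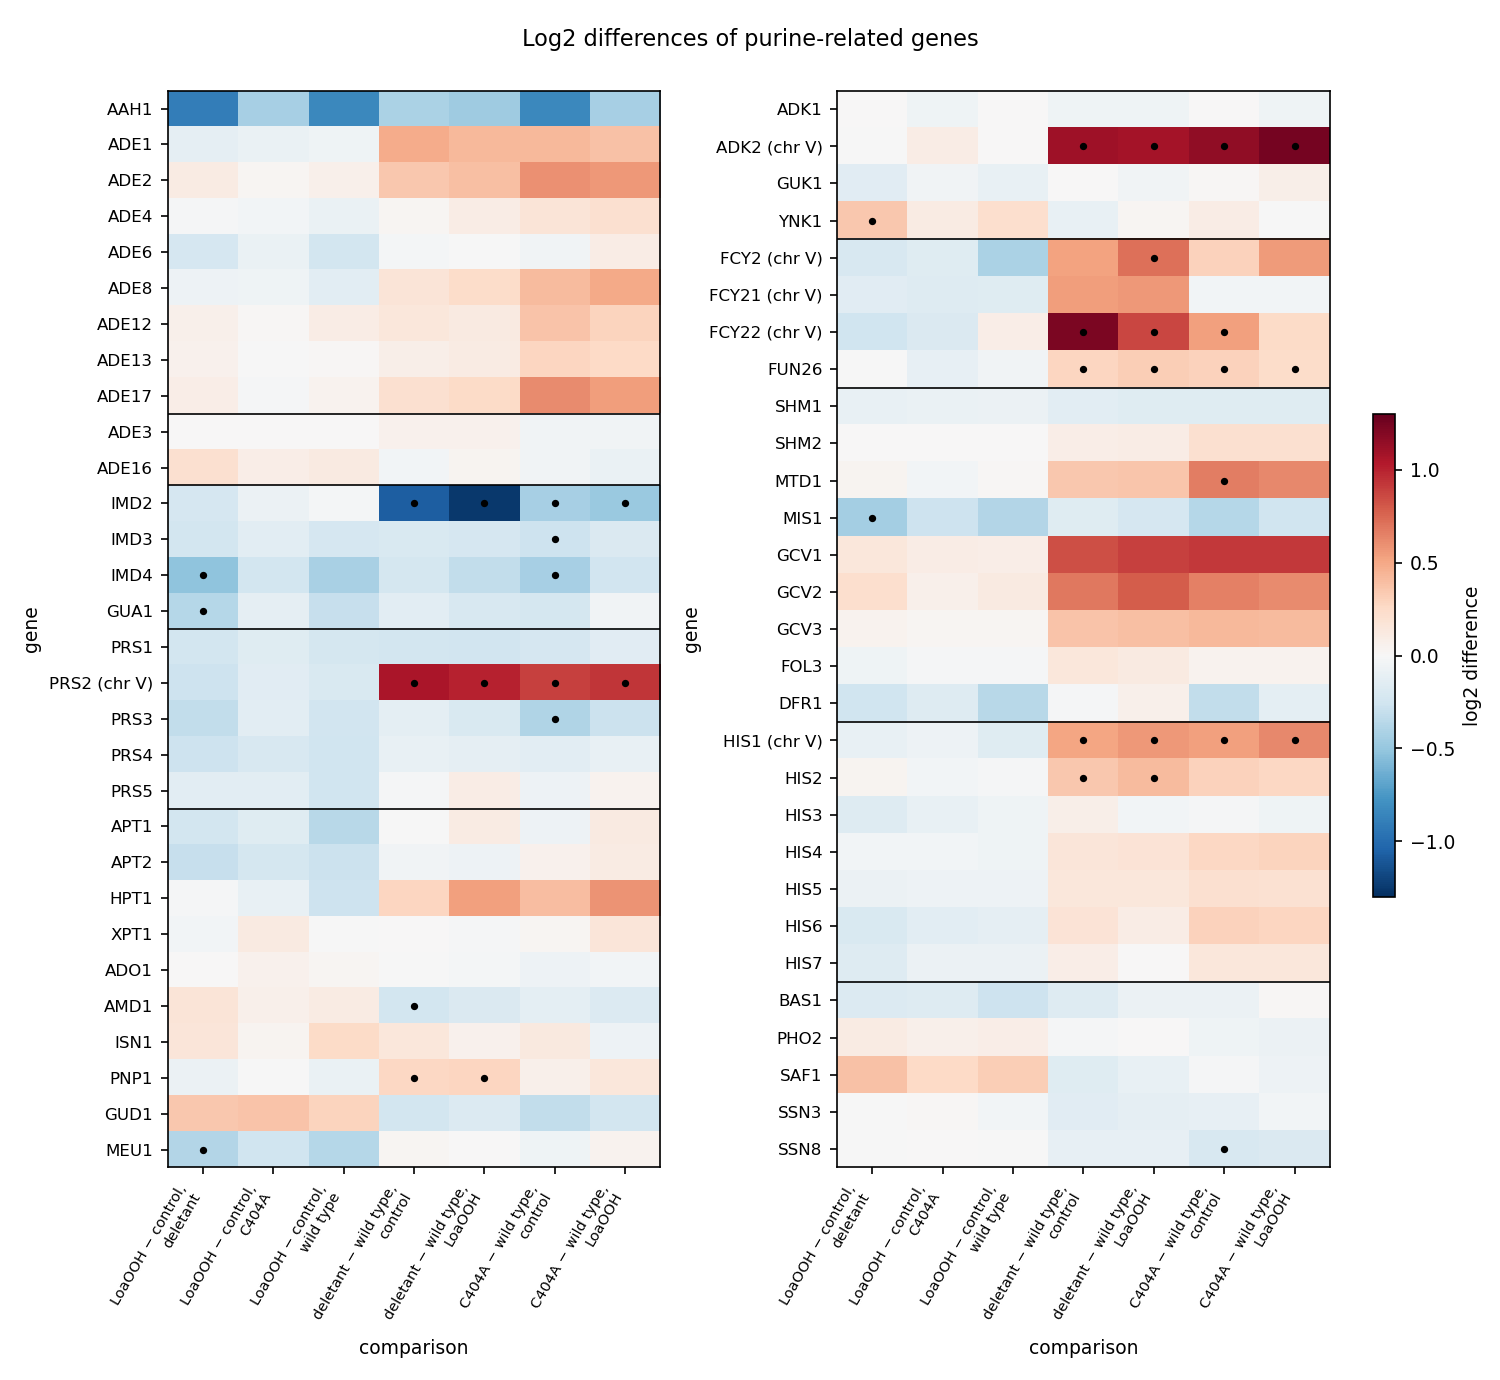
Log2 difference (colour, LoaOOH minus control or mutant minus wild type) of the members and of related genes by list, for 3 LoaOOH responses and 4 differences from wild type. Dots mark an adjusted p under 0.05 in limma, shown for members only where the comparison did not choose them, and chr V marks genes of chromosome V. IMD2 and IMD4 are blue in the 4 mutant columns. The dotted genes with positive differences over 1 lie on chromosome V.

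Of 14 salvage and interconversion genes, 2 rose and 1 fell in deletant control cells against wild type, where 10.1% of all genes passed. PNP1, purine nucleoside phosphorylase, rose by 0.27 (adjusted p = 0.0175), AMD1, AMP deaminase, fell by 0.24 (adjusted p = 0.0259), and ADK2 lies on chromosome V and rose by 1.10 (adjusted p = 1.71e-05). HPT1, which uses the hypoxanthine that Aah1 makes, differed by 0.28 ± 0.277 (adjusted p = 0.617). In the deletant response YNK1, nucleoside diphosphate kinase, rose by 0.35 (adjusted p = 0.0316) and MEU1, a methylthioadenosine phosphorylase gene, fell by 0.38 (adjusted p = 0.0343). Over 30 alternatives the adjusted p ran from 0.00625 to 0.131 for YNK1 and from 0.00369 to 0.155 for MEU1, and with a replicate block 0 of all genes passed in this response. Of 4 transport genes 2 rose in deletant control cells and 3 after LoaOOH, where 10.4% of all genes passed, and all but FUN26 lie on chromosome V. FUN26, a vacuolar nucleoside transporter gene on chromosome I, rose in both mutants, by 0.28 in deletant (adjusted p = 0.0132) and 0.30 in C404A control cells (adjusted p = 0.0109). Each of these passed in 25 of 28 alternatives, with an adjusted p up to 0.0971 in the deletant and 0.161 in C404A. The purine permease gene FCY2 rose by 0.72 in the deletant after LoaOOH (adjusted p = 0.00867), and its relative FCY22 rose by 1.22 in deletant control cells (adjusted p = 3e-05).

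Few one-carbon genes passed. Of 9, 0 rose or fell in deletant control cells (10.1% of all genes) and 1 rose in C404A control cells (8.24% of all genes), MTD1, a folate dehydrogenase gene, by 0.67 (adjusted p = 0.0375, and 0.117 without replicate 2). GCV1, a subunit of the glycine cleavage complex, differed from wild type by 0.84 ± 0.394 in the untreated deletant and 0.92 ± 0.394 in the untreated C404A mutant (adjusted p = 0.229 and 0.168). GCV1 stood at 11.61, 12.84 and 12.54 in deletant control cells and at 12.03, 13.18 and 12.02 in C404A control cells, against 11.56, 11.22 and 11.70 in wild type control cells, with replicate 2 highest in both mutants. Of 7 histidine genes 2 rose in deletant control cells, against 10.1% of all genes passing, HIS2 by 0.35 (adjusted p = 0.024) and HIS1, on chromosome V, by 0.51 (adjusted p = 0.0181).

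Over the 18 arrays, the 5 genes outside the members most like the mean of the 6 ADE genes were HIS4 (Pearson r = 0.957), HIS5 (0.929), SER3 (0.919), GCV1 (0.906) and SHM2 (0.878). The members left out of the mean, ADE13 and ADE12, had an r of 0.951 and 0.887 with it, and ADE16 had an r of -0.454. HIS4 and HIS5 belong to histidine synthesis, SER3 and SHM2 to serine and glycine metabolism, and SER3 lies on chromosome V. HIS4 had a Spearman correlation of 0.948, and r was 0.932 without the 2 arrays farthest from the median, which are the C404A replicate 2 arrays. The genes most like AAH1 were another set, IMD4 (r = 0.989), NOP2 (0.970), MTR4 (0.969), PRP43 (0.966) and PHO90 (0.965). They are the top of a broad set, as 94 of 5448 genes had an r over 0.9 with AAH1. NOP2, MTR4 and PRP43 are known for roles in making ribosomes, and PHO90 is a phosphate transporter gene. IMD4 had a Spearman correlation of 0.973 with AAH1, and r was 0.986 without the 2 arrays farthest from the median. AAH1 and the mean of the 6 ADE genes had an r of -0.14 over the 18 arrays. On pair means centred within genotype, where treatment and genotype are averaged out, AAH1 had an r of 0.40 to 0.82 with the ADE genes (median 0.66, positive for 8 of 8). The median r over all genes was 0.0064 with AAH1 and -0.049 with the ADE mean, and these values describe 18 arrays that fall into same-numbered pairs and share groups.

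**Figure D5:**
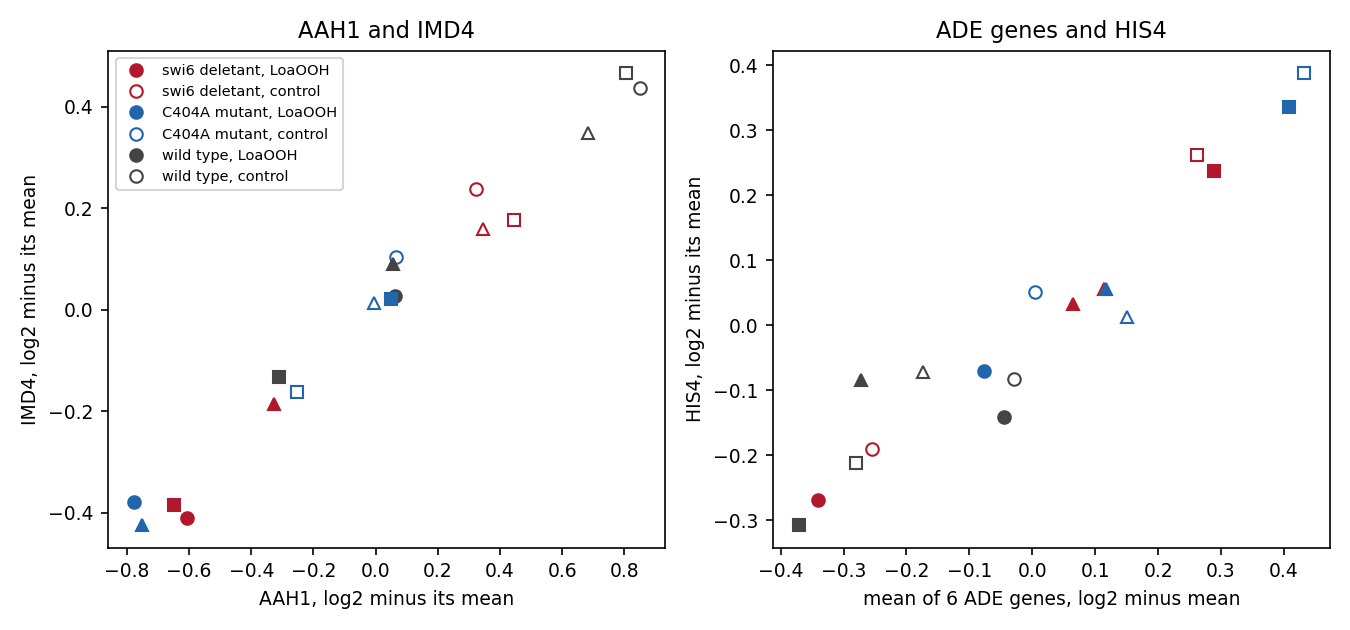
Centred log2 signal of IMD4 against AAH1 (left) and of HIS4 against the mean of 6 ADE genes (right), 1 point per array. Colours give the genotype, filled markers LoaOOH and open markers control, and shapes the replicate number as circle, square and triangle for 1, 2 and 3; on the left each LoaOOH marker lies at a lower AAH1 level than the control marker of its pair except for C404A replicate 2, and on the right the markers of a pair lie close together.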

How the data were processed

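The deposited values of the 18 arrays are log2 signals. The submitters' processing notes name Affymetrix Expression Console and the PLIER algorithm, with no version or setting. The values ran from 2.47 to 14.99, from which the log2 scale was taken. How arrays were normalized to each other is not stated. Biotin-labelled RNA was made from 6 µg of total RNA of cultures of 200 ml grown to an OD600 of 0.4, per the labels' protocols. All columns were used (0 left out) and no 2 arrays were identical (0 pairs).

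The platform annotation assigned 5498 of 10928 probe sets to 1 gene of this yeast, giving 5449 genes with 1 probe set each (an ID without a suffix letter first, then the highest mean). Each member had 1 probe set. Array medians over these genes ran from 10.56 to 10.64, so values were used as deposited. Signal levels of different genes were not compared. Symbols and chromosomes come from the R64 assembly, and sequences were not used here.

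Comparisons were contrasts within a single limma fit (limma 3.58.1, R 4.3.3) of 6 group means over 18 arrays, with two-sided moderated tests adjusted by Benjamini-Hochberg over all 5449 genes at 0.05 (12 residual degrees of freedom). For the members, 6 comparisons were tested and the others, which were used to choose AAH1 or are built from comparisons that were, are described. Each tested comparison shares arrays with those that chose AAH1. The difference between the C404A and wild type responses had been planned as a test and is among those described. The script was tested on simulated data. The number of arrays limits the precision.

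The members and gene lists were chosen with earlier results of these data known. Named genes were the members, ADE3, ADE16, BAS1 and PHO2, list genes that passed (at most the 5 largest per comparison and list), and the 5 genes of highest Pearson correlation with AAH1 and with the mean of the pathway to IMP. HPT1 was named after its values were seen. ADE5,7 and IMD1 were not analysed here, so that mean used 6 genes. Alternatives covered scaling, filters, variance shrinkage, blocks and left-out arrays.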

Additional observations from a re-analysis of the deposited data

How the results depend on the processing

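With all arrays 0 of 9 members passed in each of the 6 tested comparisons. The count became 1, AAH1 alone, without both C404A replicate 2 arrays in the wild type response, the C404A response and the deletant difference from wild type in control and in LoaOOH cells (1 each), and with trended, robust variances in the wild type response (1). Leaving out each array in turn gave 0 to 1 in these 4 comparisons, and 0 in both comparisons of C404A with the deletant. The single arrays whose removal gave 1 were C404A LoaOOH replicate 2 in all 4, and also C404A LoaOOH replicate 1 and C404A control replicate 2 in the wild type response. With a replicate block the count was 0 in each of the 6 (AAH1 in wild type at adjusted p = 0.0883), while over all genes the wild type response had 0 calls against 14 and the deletant response 0 against 194. Deviations of same-numbered arrays correlated at 0.055 to 0.26 in the deletant, 0.12 to 0.6 in C404A and 0.5 to 0.86 in wild type. Those of differently numbered arrays correlated at -0.23 to 0.00093, -0.37 to 0.23 and -0.67 to 0.2 in the same order. The labels do not say what the numbers stand for, and the main fit does not use any pairing that these values may reflect. With each same-numbered pair as a block, an alternative chosen after seeing the data, it was 0 in both responses. That block without the C404A replicate 2 arrays gave 2 in the wild type response, AAH1 and ADE6, and 1 in the C404A response. Quantile normalization, centring, the filter on dim genes, leaving out chromosome V, averaging probe sets, the prefix as a covariate and the CT arrays alone kept the count at 0. The cause of these shifts was not tested beyond the arrays left out. For the C404A response, the fits without its replicate 2 arrays leave out arrays chosen by that response. Over 107 single-gene results and up to 30 alternatives each (3045 values), 2811 kept their direction and side of the threshold or passed in neither fit. A call was lost in 220 and gained in 14, 0 called values changed sign, and 86 values that passed in neither fit did. Most of the 107 results are of members, which passed in no main fit and so could not lose a call. All 220 lost calls are thus of the other genes, and the 2811 does not measure how stable calls were. The scalings moved the median of all genes by at most 0.034. The described medians of the members ranged, leaving out each array in turn, from -0.17 to 0.16 (deletant response), 0.22 to 0.47 and 0.20 to 0.39 (C404A against wild type, control and LoaOOH) and -0.09 to 0.14 (deletant response difference).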

Other observations

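PRPP synthesis and pyrimidine synthesis border the purine pathway. Of 5 PRPP synthetase genes, PRS2, on chromosome V, rose by 1.06 in deletant control cells (adjusted p = 2.63e-07) and by 0.89 in C404A control cells (adjusted p = 1.86e-06). PRS3 fell by 0.39 in C404A control cells (adjusted p = 0.0191, and 0.0754 without both C404A replicate 2 arrays). Of 8 pyrimidine genes 1 fell in the deletant response, URA7, CTP synthase, by 0.56 (adjusted p = 0.0381, with a range over 30 alternatives of 0.00262 to 0.169), where 3.56% of all genes passed. URA6, uridylate kinase, fell by 0.27 in C404A control cells (adjusted p = 0.03, and 0.0761 without those arrays). Of 5 regulators 1 fell in C404A control cells, SSN8, a cyclin of the Mediator kinase module, by 0.21 (adjusted p = 0.0376, with a range over 28 alternatives of 0.0307 to 0.302), where 8.24% of all genes passed. MIS1, a mitochondrial one-carbon gene, fell by 0.44 in the deletant response (adjusted p = 0.0476, with a range over 30 alternatives of 0.00395 to 0.172). It passed in 13 of these 30.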
